A study of Homo sapiens with 6 samples.

Results

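The mitochondrial ribosomal protein genes were measured by RNA sequencing in RL95-2, a long-established line of human endometrial carcinoma cells. The members were the genes whose symbols begin with MRPL or MRPS followed by digits and at most 1 letter from A to C, which gave 76 of the 23228 genes in the count tables. Cells grown in RPMI with serum were moved to serum-free RPMI and DMEM for 24 h (control, 3 libraries) or to the same base with adipocyte-conditioned medium (ADP-CM, 3 libraries), which is DMEM that mature adipocytes isolated from human adipose tissue had been kept in. The conditioned medium holds everything the adipocytes released or took up, and the control held none, so no single agent separates the groups. The labels number the replicates but do not say that they came from separate cultures, so the p-values measure the spread between these libraries, which may be technical.

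Mitochondria keep a ribosome of their own, which translates the few messenger RNAs of the mitochondrial genome, all of them for subunits of the respiratory chain and the ATP synthase. Its RNA is made in the organelle, but every one of its proteins is encoded in the nucleus, translated in the cytosol and imported, and many descend from bacterial ribosomal proteins while others were added during the evolution of mitochondria. MRPL genes are named for the large subunit, which forms the peptide bond, and MRPS genes for the small subunit, which reads the messenger, although MRPS18A and MRPS30 are known to encode proteins of the large one.

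Promoters were examined first because these genes are scattered over 21 chromosomes and are known to be served by widely used housekeeping factors. Promoter sequences (250 bases before to 50 after the start) from RefSeq, build GRCh38.p14, matched 67 of the 76 members. Letters bound by ETS factors such as GABPA (CCGGAAG, either strand) stood in 28 of the 67 promoters (41.8%), against 19.9% of the 9796 promoters of all genes tested and 32.9% of those of 70 cytosolic ribosomal protein genes. Letters bound by YY1 (AAGATGGCG, either strand) stood in 13 member promoters (19.4%), against 4.18% over all genes tested and 8.57% for the cytosolic genes. For the nuclear respiratory factor NRF1 (GCGCATGC, either strand) the share was 8.96% of members against 5.56%, and for the E-box (CACGTG, which reads the same on both strands) it was 8.96% against 10.1%. An ETS string can run into a YY1 string by sharing 3 letters, which happened in 0 member promoters. These are letter matches, not binding sites.

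The windows from 100 bases before the start to 20 after it are shown for the genes with the largest rise and fall and for 2 further called genes that carry ETS letters, with those letters in capitals, 5′ to 3′ on the strand of the gene. MRPS34 (chr16:1773115-1773234, minus strand) had ETS letters beginning 71, 29 and 19 bases before the start. MRPS33 (chr7:141014933-141015052, minus strand) had them at base 1 of the transcript, and MRPL40 (chr22:19432445-19432564, plus strand) 11 bases before the start. MRPS25 (chr3:15065296-15065415, minus strand) had none in its window.
MRPS25: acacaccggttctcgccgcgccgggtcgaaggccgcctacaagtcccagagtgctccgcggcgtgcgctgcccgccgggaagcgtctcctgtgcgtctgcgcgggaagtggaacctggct
MRPS34: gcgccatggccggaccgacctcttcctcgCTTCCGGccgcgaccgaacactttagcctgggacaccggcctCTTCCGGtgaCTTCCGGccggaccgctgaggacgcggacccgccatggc
MRPS33: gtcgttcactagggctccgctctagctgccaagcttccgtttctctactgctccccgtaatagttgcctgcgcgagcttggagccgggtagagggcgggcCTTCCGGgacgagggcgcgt
MRPL40: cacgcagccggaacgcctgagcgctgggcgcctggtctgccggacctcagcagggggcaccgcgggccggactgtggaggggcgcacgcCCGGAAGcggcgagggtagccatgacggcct

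YY1 letters lay after the start on the strand of the gene in 10 of the 67 members (14.9%), beginning at transcript positions 7 to 36, against 2.75% of all genes tested. The 5 windows shown, cut to begin 10 bases before the YY1 letters (in capitals) so that the letters line up, give the bases around them in genes where they begin at positions 7 to 14. MRPS18A, where they begin at position 10, also falls in this range and is not shown. The windows are from MRPL38 (chr17:75904859-75904888, minus strand), MRPL42 (chr12:93467512-93467541, plus strand), MRPL46 (chr15:88467361-88467390, minus strand), MRPS10 (chr6:42217833-42217862, minus strand) and MRPS30 (chr5:44808950-44808979, plus strand), all in GRCh38.p14.
MRPL38: ggccggagggAAGATGGCGgcgccctggtg
MRPL42: ggattgaaacAAGATGGCGggttcgtggtg
MRPL46: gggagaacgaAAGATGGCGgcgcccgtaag
MRPS10: cgggaccggcAAGATGGCGgcgcggacagc
MRPS30: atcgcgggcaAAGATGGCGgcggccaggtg

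The mitochondrial ribosomal protein genes as a group had nearly the same summed level in both media. Their summed level, in CPM (reads on the gene scaled to a common library size), was 5908, 5849 and 5902 for control cells and 5923, 5917 and 5839 for cells in ADP-CM. The ADP-CM sums lay on both sides of the control sums, so the groups overlapped. As a share of reads the members took 0.588% ± 0.00371 (SD, n = 3) in control cells and 0.590% ± 0.00413 (SD, n = 3) under ADP-CM. Each library held 16262614 to 18363033 reads on genes.

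**Figure D1:**
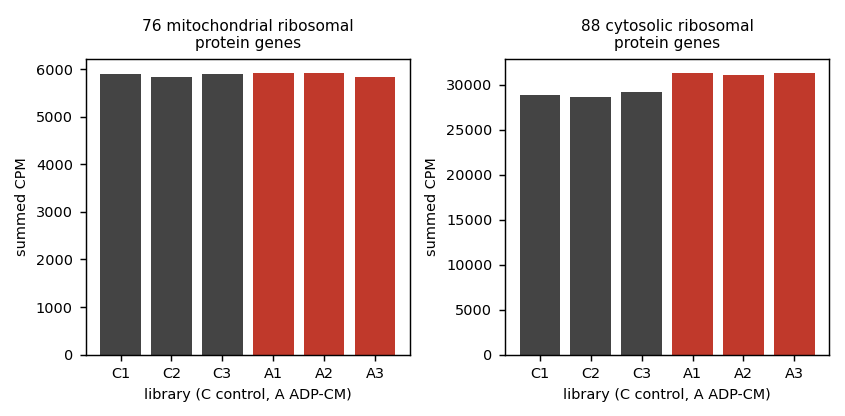
Summed CPM of the 76 mitochondrial (left) and 88 cytosolic (right) ribosomal protein genes in each library, as bars that start at 0 (C1 to C3, control; A1 to A3, ADP-CM). The mitochondrial sums lie between 5839 and 5923 in all 6 libraries with the groups overlapping, while the cytosolic sums lie between 28680 and 29262 in control and between 31071 and 31324 under ADP-CM.

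Gene by gene, 75 members had enough reads to be tested. With edgeR's quasi-likelihood test and Benjamini-Hochberg adjustment over all 12663 genes tested, 4 members rose and 6 fell at an adjusted p below 0.01. That is 13.3% of the members, where 26.5% of all genes tested were called (13.5% raised and 13% lowered). No member passed a fold change of 1.5 as well, a limit that 1.14% of all genes passed upward and 1.14% downward. At an unadjusted p below 0.05, 27 of the 75 members passed, and 5694 of the 12663 genes tested did. The members' counts ran from 384 to 4682 reads in a library, and among the 7017 genes whose mean CPM fell in the members' own range 31.1% were called.

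The members' log2 fold changes (ADP-CM over control) ran from -0.19 to 0.18 with a median of -0.0081, beside a median of -0.0023 over all genes tested. The interquartile range was 0.12 for the members, 0.21 for all genes and 0.16 for genes in the members' CPM range. Of the members, 34 lay above 0 and 41 below. The standard error of a member's log2 fold change had a median of 0.0387. The bound farthest from 0 among the 75 intervals of 95% was that of MRPS33, at 1.22-fold. The 3 control values and the 3 ADP-CM values did not overlap for 25 members (11 higher and 14 lower under ADP-CM), where 45.5% of all genes tested and 49.9% of genes in the members' CPM range did not overlap.

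**Figure D2:**
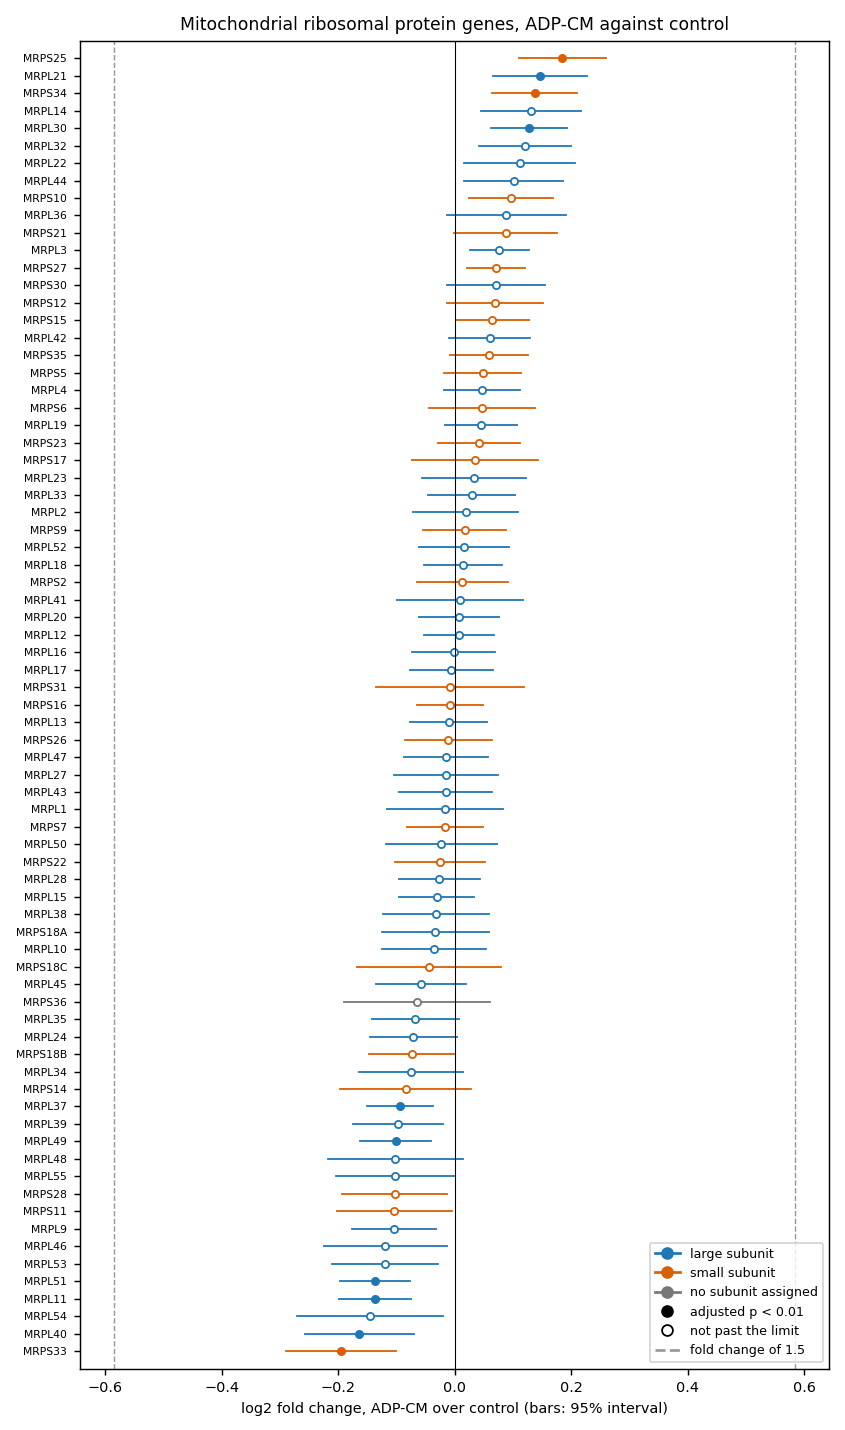
Log2 fold change (ADP-CM over control) of the 75 tested members, ordered by value, with 95% intervals as bars; blue is the large subunit, orange the small subunit and grey MRPS36, and filled points passed an adjusted p of 0.01. Every interval lies inside the dashed lines at a fold change of 1.5, with the filled points on both sides of 0.

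Of the 4 members that rose, 2 belong to the small subunit. MRPS25 (chr3:15051118-15106846 on hg19, minus strand), a small subunit protein of the mitochondrial ribosome without a bacterial homologue, had 67.2, 70.1 and 69.8 CPM in control and 77.4, 79.7 and 78.3 CPM under ADP-CM. All 3 ADP-CM values were above all 3 control values. Its log2 fold change was 0.18 (SE 0.037, adjusted p = 4.88e-05 by edgeR's quasi-likelihood test), the largest rise among the members. MRPS34 (chr16:1821891-1823151, minus strand), another mitochondria-specific protein of the small subunit, had 77.7, 76.5 and 78.5 CPM in control and 88.5, 81.0 and 86.3 CPM under ADP-CM. The groups did not overlap, although the second ADP-CM library was nearer to the control values than the other two. Its log2 fold change was 0.14 (SE 0.037, edgeR adjusted p = 0.00208).

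The other two that rose encode large subunit proteins with bacterial homologues. MRPL21 (chr11:68658744-68671303, minus strand) had 57.8, 55.8 and 57.1 CPM in control and 63.5, 62.4 and 63.0 CPM under ADP-CM, again without overlap. It rose by a log2 fold change of 0.15 (SE 0.040, edgeR adjusted p = 0.00291). MRPL30 (chr2:99797615-99816024, plus strand) had 102, 101 and 98.7 CPM in control and 109, 113 and 108 CPM under ADP-CM. Every ADP-CM value exceeded every control value, and its log2 fold change was 0.13 (SE 0.033, edgeR adjusted p = 0.00137). In the GENCODE annotation MRPS25 and MRPL30 share 11.3% and 11.8% of their exonic bases with other genes on the same strand. The counts were made on RefSeq genes, in which these overlaps were not checked.

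Of the 6 members that fell, 5 belong to the large subunit. The exception, MRPS33 (chr7:140702410-140715028, minus strand), a mitochondria-specific protein of the small subunit, had 51.7, 46.7 and 48.1 CPM in control and 42.5, 42.6 and 42.7 CPM under ADP-CM. The ADP-CM libraries were nearly equal and all below the control libraries, of which the first was the highest. It fell by 0.19 on the log2 scale (SE 0.047, edgeR adjusted p = 0.000709), the largest fall among the members.

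MRPL40 (chr22:19420068-19423598, plus strand), a mitochondria-specific large subunit protein, had 49.4, 48.9 and 47.3 CPM in control and 42.5, 43.0 and 44.4 CPM under ADP-CM and fell by 0.16 on the log2 scale (SE 0.047, edgeR adjusted p = 0.00385). MRPL11 (chr11:66202546-66234209, minus strand), whose bacterial homologue helps to form the stalk where elongation factors bind, had 128, 129 and 125 CPM in control and 115, 116 and 116 CPM under ADP-CM. Neither gene had overlapping groups. MRPL11 fell by 0.14 (SE 0.031, edgeR adjusted p = 0.000252). MRPL51 (chr12:6601052-6603007, minus strand), mitochondria-specific, had 153, 145 and 151 CPM in control and 134, 140.2 and 135 CPM under ADP-CM. The second library of each group was the one nearest to the other group, and the groups stayed apart. It fell by 0.14 (SE 0.030, edgeR adjusted p = 0.000184).

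The smallest called falls were those of MRPL49 and MRPL37, both mitochondria-specific proteins of the large subunit. MRPL49 (chr11:64889655-64894843, plus strand) had 133, 129 and 131 CPM in control and 123, 122 and 121 CPM under ADP-CM. MRPL37 (chr1:54649714-54691137, plus strand) had 167, 168 and 162 CPM in control and 156, 156 and 154 CPM under ADP-CM. Their groups did not overlap, and MRPL49 fell by 0.10 on the log2 scale (edgeR adjusted p = 0.00614) and MRPL37 fell by 0.09 (edgeR adjusted p = 0.00614). Only MRPS25, MRPL11 and MRPL51 passed the same limit with DESeq2, and they were also the 3 that passed in each of the 13 other settings of scaling, filter, model and left-out library, DESeq2 included, while MRPL49 passed in 6 of the 13 and the other members in 8 to 11.

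**Figure D3:**
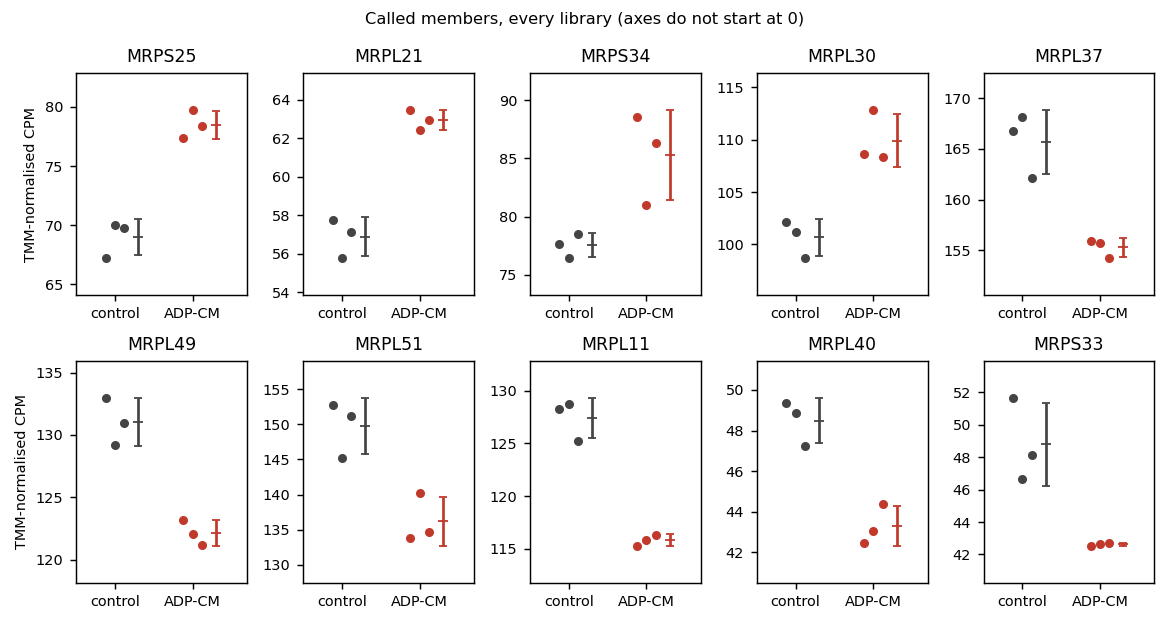
TMM-normalised CPM of the 10 called members in each library (points), with the mean and SD of the 3 libraries of a group beside them (bar); grey is control and red is ADP-CM, and the axes do not start at 0. In all 10 panels the ADP-CM points lie entirely above or entirely below the control points.

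By structural role, with MRPS18A and MRPS30 placed in the large subunit from general knowledge of its structure, 4 of the 6 falls were of mitochondria-specific large subunit genes. Of 19 such genes tested, 0 rose and 4 fell (MRPL40, MRPL51, MRPL49 and MRPL37), with 14 of 19 below 0 and a median log2 fold change of -0.06. Only MRPL51 among these 4 falls was also called with DESeq2. Of the 30 large subunit genes with bacterial homologues, 2 rose and 1 fell, with a median of 0.0029. In the small subunit 2 of 25 tested genes rose and 1 fell, with a median of 0.02, and none of the 15 with bacterial homologues was called. The difference between these classes was not tested, and all of them are read against the 13.5% raised and 13% lowered over all genes. MRPS36, counted as a member by its symbol, is known as a component of the 2-oxoglutarate dehydrogenase complex and was placed in no class. It had 23.9 to 26.6 CPM in control and 22.5 to 25.7 CPM under ADP-CM (log2 fold change -0.06, edgeR adjusted p = 0.448), with overlapping groups.

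Levels per transcript length differed far more between members than between conditions. CPM per kilobase of the canonical transcript had a median of 60.0 over the tested members and spanned 26.1-fold, from 6.10 to 159. The highest were MRPL51 (159), MRPL33 (154) and MRPL3 (144), which are large subunit genes, and the lowest were MRPL42 (6.10), MRPS33 (10.9) and MRPS11 (12.7). The low values go with long annotated transcripts of 15557, 4210 and 3392 bases, so they depend on which transcript the cells used, which was not measured. MRPL3 had 238, 237 and 242 CPM in control and 258, 255 and 243 CPM under ADP-CM, and missed the limit (edgeR adjusted p = 0.0123). MRPL33 had 77.4, 75.8 and 78.6 CPM in control and 81.2, 80.1 and 75.3 CPM under ADP-CM, with overlap. MRPL42 had 88.8, 94.8 and 95.4 CPM in control and 95.9, 96.7 and 98.2 CPM under ADP-CM, and MRPS11 had 47.3, 43.9 and 43.2 CPM in control and 43.7, 39.7 and 41.6 CPM under ADP-CM. Neither passed the limit, and the MRPS11 groups overlapped.

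1 member was hardly detected. MRPS24, a small subunit gene with a bacterial homologue, was counted 6, 4 and 6 times in control and 4, 2 and 6 times under ADP-CM, too few reads to be tested. In GENCODE 23.2% of its exonic bases are shared with the readthrough gene URGCP-MRPS24 on the same strand. The part of this overlap in its low counts was not tested.

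The genes of the cytosolic ribosome, which makes the imported proteins, were set beside the members. Of 81 cytosolic ribosomal protein genes tested, 55 rose and 1 fell (69.1% called against 26.5% over all genes), with a median log2 fold change of 0.12 and none past 1.5-fold. RPL13A, of the cytosolic large subunit, had 194, 196 and 206 CPM in control and 245, 247 and 244 CPM under ADP-CM (log2 fold change 0.30, edgeR adjusted p = 2.04e-15). Its groups did not overlap. RPLP1, a cytosolic stalk protein, was the single fall, from 514, 491 and 476 CPM in control to 461, 440.2 and 495 CPM under ADP-CM, its groups overlapped, and it was not called with DESeq2, with a robust fit, or without control replicate 1 or 2 or ADP-CM replicate 1 or 2. The difference between the 2 families was not tested.

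**Figure D4:**
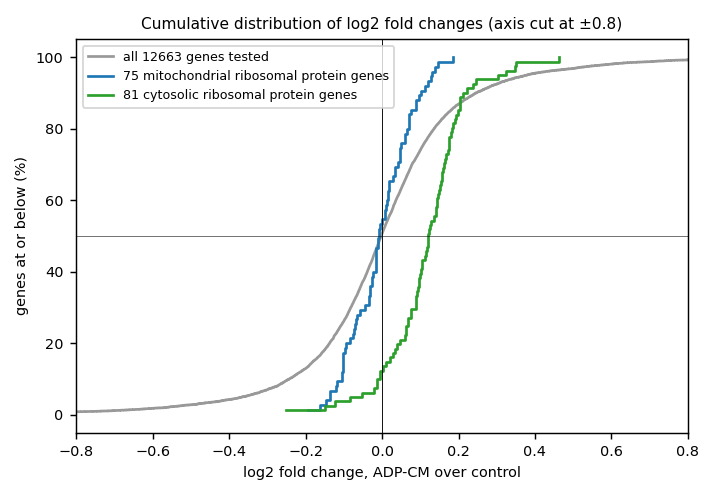
Cumulative share of genes (%) at or below each log2 fold change (ADP-CM over control) for all 12663 genes tested (grey), the 75 mitochondrial (blue) and the 81 cytosolic (green) ribosomal protein genes. The blue curve crosses 50% close to 0 and is steeper than the grey one, while the green curve crosses 50% at 0.12.

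Other genes of mitochondrial translation were called in both directions, and the counts of each list stand beside the 26.5% called over all genes. Of 7 mitoribosomal proteins that carry other symbols, 2 rose and 0 fell (28.6% called). These were DAP3, a GTP-binding protein of the small subunit (129.6, 135 and 137 CPM in control and 140.4, 150.4 and 147 CPM under ADP-CM, edgeR adjusted p = 0.000822), and PTCD3, also of the small subunit (147, 152 and 152 CPM in control and 157, 161 and 163 CPM under ADP-CM, edgeR adjusted p = 0.00713). With DESeq2, 0 of these 7 rose. Of 13 translation factors, 3 rose and 1 fell (30.8% called). MTRF1, a release factor, went from 10.6, 10.2 and 9.47 CPM in control to 13.7, 13.4 and 13.5 CPM under ADP-CM (log2 fold change 0.42, edgeR adjusted p = 6.97e-05). TUFM, the elongation factor that brings aminoacyl-tRNA to the ribosome, rose by 6.66% (edgeR adjusted p = 0.000708). The initiation factor gene MTIF3 fell by 0.27 on the log2 scale (edgeR adjusted p = 0.000101).

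Of 24 assembly factors of the mitochondrial ribosome, 1 rose and 2 fell (12.5% called), and with DESeq2 0 rose and 0 fell. FASTKD2, an RNA-binding protein needed for the large subunit RNA, rose by 8.65% (edgeR adjusted p = 0.00328). MPV17L2 had 29.9, 30.6 and 28.5 CPM in control and 23.3, 23.6 and 28.4 CPM under ADP-CM, the third ADP-CM library lying close to control, and NGRN fell by 0.10 on the log2 scale (edgeR adjusted p = 0.00752). Of 11 genes listed under mitochondrial transcription and mRNA stability, 5 rose and 0 fell (45.5% called). The 5 include C10orf2, the mitochondrial DNA helicase Twinkle, which belongs to DNA replication and not to the processes the list is named for. C10orf2 rose by a log2 fold change of 0.23 (edgeR adjusted p = 6.73e-07). SLIRP, which protects mitochondrial messengers, rose by 0.17 (edgeR adjusted p = 9.68e-05).

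The mitochondrial aminoacyl-tRNA synthetases and the tRNA amidotransferase subunits listed with them split evenly, with 2 of 20 raised and 2 lowered (20% called). YARS2 and VARS2, which charge the tyrosine and valine tRNAs, rose by 17.2% and 13.1%, and TARS2, which charges the threonine tRNA, had a log2 fold change of -0.22 and was called as a fall. Of 10 regulators of mitochondrial biogenesis, 3 rose and 0 fell (30% called). MYC, a transcription factor of growth genes, had 259, 258 and 258 CPM in control and 325, 315 and 326 CPM under ADP-CM (log2 fold change 0.32, edgeR adjusted p = 3.54e-18). PPRC1, a coactivator related to PGC-1, rose by a log2 fold change of 0.15 (edgeR adjusted p = 3.78e-06).

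Head-to-head neighbours of the members were compared with them, because a gene pair transcribed outward from 1 short region can share it. The rule for a neighbour asked only for starts on opposite strands within 1000 bases, to either side. Pairs whose starts overlap were therefore counted together with outward pairs, among the members and over the genome. In GENCODE, 26 of the 76 members (34.2%) had a protein-coding gene on the opposite strand starting within 1000 bases, against 18.4% of 11791 tested protein-coding genes. In 20 of these pairs both genes were tested and the neighbour was not itself a member. Both genes had the same sign of log2 fold change in 17 of the 20 pairs (85%), where 54.5% of 968 such pairs over the genome did. Across the 20 pairs Pearson's r was 0.51 and Spearman's rho 0.55, against r = 0.14 over the 968 pairs. These are descriptions over genes of the same 6 libraries, which are not independent replicates. The count includes MRPL11 with PELI3, whose log2 fold change was -0.00015. It also includes pairs whose transcripts overlap, such as MRPS34 with EME2 (31.2% of the exonic bases of MRPS34) and MRPL51 with NCAPD2 (27.6%). If the counting ignored strand, reads on the shared bases could be set aside as ambiguous, which was not tested.

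Among the 20 neighbours 5 were called (25%, against 26.5% over all genes), and they did not all move with the member. NCAPD2, a condensin subunit that starts 485 bases from MRPL51, went from a mean of 407 to 348 CPM (log2 fold change -0.23), beside the fall of MRPL51. NDUFB5, a subunit of respiratory complex I 41 bases from MRPL47, fell from 91.7 to 84.6 CPM. TCP1, of the cytosolic chaperonin and 109 bases from MRPL18, rose from 373 to 414 CPM, and neither MRPL47 nor MRPL18 was called. The Twinkle gene, C10orf2 in the count tables and 148 bases from MRPL43, rose from 70.3 to 82.6 CPM (log2 fold change 0.23) beside a log2 fold change of -0.02 for MRPL43, which was not called. FAU, which encodes the cytosolic ribosomal protein eS30 fused to a ubiquitin-like protein, starts 6 bases from MRPL49. It rose from 171 to 186 CPM (log2 fold change 0.12) while MRPL49 fell by 0.10, so the 2 ribosomes' genes at this shared start went opposite ways. MRPL46 and MRPS11 form a pair with each other 63 bases apart, with log2 fold changes of -0.12 and -0.10 that did not pass the limit.

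**Figure D5:**
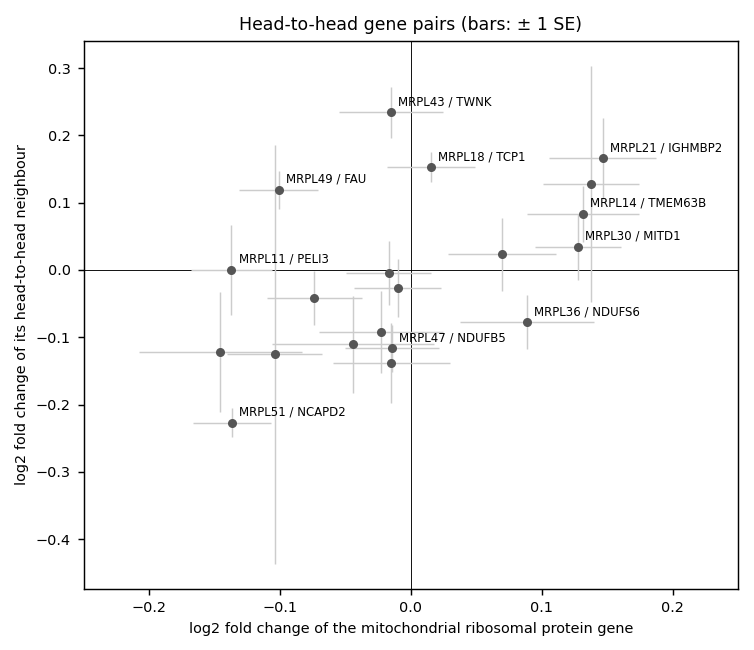
Log2 fold change (ADP-CM over control) of the member (horizontal) and of its head-to-head neighbour (vertical) for the 20 pairs, with bars of 1 SE. In 17 pairs the 2 genes share a sign, and MRPL49 with FAU, MRPL36 with NDUFS6 and MRPL43 with TWNK (the Twinkle gene) are the 3 that do not.

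The calls were also counted by promoter letters. Among the tested members with ETS letters 2 of 28 rose and 3 fell, and among those without them 1 of 38 rose and 3 fell. None of the 12 tested members with YY1 letters and none of the 6 with NRF1 letters was called, with median log2 fold changes of 0.04 and 0.0050, while 3 rose and 6 fell of the 54 without YY1 letters and of the 60 without NRF1 letters. Over all genes 26.5% were called. With E-box letters 0 of 6 rose and 2 fell.

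The labelled cell type was checked by markers. All 8 epithelial markers were tested, with summed levels of 4144 to 4217 CPM in control and 3490 to 3539 CPM under ADP-CM. Of these 8 markers 2 rose and 5 fell, with log2 fold changes from -0.85 to 1.27. Of 8 adipocyte markers 1 was tested and 2 had no read in any library, with sums of 10.1 to 10.7 CPM in control and 10.4 to 12.2 CPM under ADP-CM. Stromal sums were 61.5 to 68.4 CPM in control and 78.3 to 79.2 CPM under ADP-CM. Only 2 of the 8 stromal markers were tested, with log2 fold changes of -0.01 and 0.30. The highest stromal marker alone had a mean of 69.5 CPM over all libraries, so this sum was nearly that of a single gene. Leukocyte sums were 8.42 to 9.68 and 10.9 to 13.2 CPM (the 2 tested markers had log2 fold changes of -0.20 and 0.53). Endothelial sums were 60.9 to 67.1 and 54.6 to 62.2 CPM. Only 1 of the 6 endothelial markers was tested, and the highest alone had a mean of 61.1 CPM. In bulk RNA, fewer cells of a type and less RNA per cell cannot be told apart, and any part of these shifts in the results above was not tested.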

How the data were processed

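Poly(A) RNA of 6 RL95-2 libraries was prepared with a stranded kit. The authors aligned single reads to hg19 with TopHat2 and deposited raw HTSeq read counts per gene. The paper took its gene annotation from NCBI RefSeq. Versions and the strand setting of the counting were not given in the sources used here. Rows that name no gene were left out: reads on no gene were 10.2% to 11.6% of counted reads, ambiguous reads 0.709% to 0.721% and reads with several alignments 20.5% to 20.8%.

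From these counts, genes were filtered with filterByExpr, scaled by TMM and tested by edgeR 4.0.16 (glmQLFit, glmQLFTest) in R 4.3.3 over all 6 libraries with group as the only term. Calls used a Benjamini-Hochberg adjusted p below 0.01, and separately a fold change over 1.5. The study used DESeq with these limits, so DESeq2 1.42.0 was an alternative. The others were the scaling, the filter, a robust fit, the limit, a replicate block and leaving out each library. Every pair of libraries in a group differed beyond sampling noise, and the common biological coefficient of variation was 1.67%.

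The members and gene lists were chosen with earlier results of these data known. Values in every library are given for the called members, the 3 highest and 3 lowest per kilobase, members that failed the filter and up to 2 genes per direction of each pathway list, some of the last only as a change and some not reported here. Other members are named as neighbours, by class or for their sequence, chosen after their values were seen, as were the head-to-head pairs, the background in the members' CPM range and the placement of YY1 letters. An older symbol of more than 1 gene was matched to the one not listed under its own symbol. Positions, lengths and overlaps came from GENCODE on GRCh37, the assembly of hg19, with the annotated gene end as the start. The marker lists (epithelial, adipocyte, stromal, leukocyte and endothelial) served only as a check.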

Additional observations from a re-analysis of the deposited data

Results flagged for a closer look

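Reads that fell on no gene took 11.5% of the counted reads in the ADP-CM libraries (SD 0.033, n = 3) and 10.3% (SD 0.053, n = 3) in the control libraries, without overlap. They were looked at because they lie outside the gene counts and are above the control level. Their part in the levels of the mitochondrial ribosomal protein genes was not tested.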

How the results depend on the processing

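Of the 10 called members, none changed direction in any setting run. The 10 calls were kept with DESeq2 size factors, a robust fit, no filter and at least 10 counts in every library. With plain library sizes 7 members rose, MRPL14, MRPL3 and MRPL32 being the added ones. With DESeq2, 1983 genes were called in all, and 1 member rose and 2 fell. At an adjusted p limit of 0.05, 9 members rose and 9 fell, of 4645 genes called. Without the members that share exonic bases on the same strand in GENCODE, 2 rose and 6 fell of 58 tested (13.8% called, against 26.5% over all genes). MRPS25 and MRPL30 were then left out. The counting used RefSeq genes, and whether these overlaps exist there was not checked. With the trend over expression, length and GC content removed, the median log2 fold change was 0.0083 instead of -0.0081, and the cause was not tested.

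Leaving out 1 library at a time gave 2 to 9 raised and 2 to 5 lowered members. Taking out control replicate 2, control 3 or ADP-CM 1 left 2 raised, and taking out ADP-CM 3 gave 9. Lowered members numbered 2 with control 1 out, and 3 with either control 2 or ADP-CM 1 out. These fits had fewer libraries, and all genes called fell too. They numbered from 2638 of 12760 tested (without ADP-CM replicate 1) to 3206 of 12751 (without ADP-CM replicate 3), against 3357 of 12663 with all libraries.

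Each library's deviations from its group's gene means were correlated between the groups, giving 0.073, 0.014 and 0.097 for replicates with the same number. The labels do not say that the numbers pair cultures, so the main fit did not pair the libraries. The replicate block gave 6 raised and 6 lowered members, the 10 calls and MRPL14 and MRPL3, and 3502 called genes in all. By these deviations ADP-CM replicates 1 and 3 correlated best with the control of the same number, and ADP-CM replicate 2 with control replicate 1 (0.026).

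Among the other lists, DESeq2 gave 0 raised of the mitoribosomal proteins under other symbols, 0 raised and 0 lowered assembly factors, 3 raised genes of transcription and mRNA stability, 1 raised synthetase and 0 lowered cytosolic genes. Raised assembly factors were 3 with plain library sizes or with the block, and the block gave 1 lowered biogenesis regulator. Over all named genes and settings, 63 values kept their direction but no longer passed the limit, 5 newly passed it and 0 changed direction. Of the members only MRPS24 had too few reads to be tested.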

Other observations

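Overlap between genes was common around the members. In GENCODE, 18 members share exonic bases with another gene on the same strand and 30 with one on the opposite strand, and 74 pseudogenes are annotated for 35 of the members. Among the called genes, MRPS25 shares 39.1% of its exonic bases with NR2C2 on the opposite strand, MRPS34 31.2% with EME2, MRPL51 27.6% with NCAPD2 and MRPL49 11.6% with SYVN1. The strand setting of the counting was not given in the sources used here, and without it reads of such pairs cannot be told apart. Among the 35 tested members with no exonic overlap on either strand, 1 rose and 2 fell (8.57% called). Of all members tested 13.3% were called, and of all genes tested 26.5%.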
